A study of Mus musculus with 21 samples.

Results

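The genes described here make, release, clear and receive γ-aminobutyric acid (GABA), the main inhibitory transmitter of the brain, and set the chloride gradient that its receptors act on. They were the rows whose symbol was on a list of 25 genes, and all 25 were among the 21872 symbols of both count tables, 1 table per age. The libraries came from mouse brain after plain water (control) or after trientine (TETA), a copper chelator, and the labels name the treated state copper-deficient. There were 6 control and 6 TETA libraries at embryonic day 18.5 (E18.5), and 5 control and 4 TETA libraries at 7 weeks after birth. The series asks how copper bears on brain development and autism spectrum disorder. The protocol text names prefrontal cortex of male mice at 7 weeks and gives no region or sex for the E18.5 libraries, all labels say brain, and no strain, dose or treatment schedule was given in the sources used here.

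GABA is made from glutamate by decarboxylases, the products of Gad1 and Gad2, loaded into synaptic vesicles by the transporter encoded by Slc32a1, taken up again by transporters such as that of Slc6a11, and broken down by the transaminase encoded by Abat. GABA-A receptors are chloride channels built of several subunits whose make-up sets where they sit and how they respond, and GABA-B receptors are pairs of Gabbr1 and Gabbr2 proteins that act through G proteins. The sign of the GABA-A current follows the cell's chloride level: Slc12a2 (NKCC1) brings chloride in, Slc12a5 (KCC2) carries it out, and the rise of Slc12a5 in maturing neurons is a textbook step of brain development. Dlx1, Dlx2, Dlx5 and Dlx6 encode homeodomain factors of the ventral forebrain, where cortical interneurons and striatal neurons arise.

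Total counts per library were between 14678265 and 24308555 in the E18.5 table and between 17838051 and 24035857 in the 7-week table. At E18.5, the 1940 genes listed at 0 in control replicate 1-1 were listed elsewhere in multiples of 11. They were divided by 11, and 0 of the 25 GABA genes were among them. Summed levels of 10 general neuronal genes were 8759 to 9123 CPM (counts scaled to the size of each library) in the E18.5 control libraries and 10200 to 10430 in the 7-week control libraries, so neuronal RNA was present at both ages. Of the 25 genes, 23 had enough counts for a test within each age. Gabra6, whose subunit is typical of cerebellar granule cells, had 0 counts in all 9 libraries at 7 weeks, where a count of 0 allows a level of up to 0.133 to 0.175 CPM, and at most 3 counts at E18.5. Gabre, which encodes the epsilon subunit, had at most 19 counts in any library.

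At 7 weeks, 5 of the 23 tested GABA genes were lower after TETA and 0 were higher at an adjusted p under 0.05 (edgeR's quasi-likelihood test, adjusted over all genes by Benjamini-Hochberg). Of all 14240 genes tested, 9.96% passed, with 4.28% lower and 5.67% higher. The share of higher genes among the calls was 57.0%, and 67.6% with libraries scaled by their totals alone. In 4 of the 23 genes the groups did not overlap, against 11.2% of all genes. The 5 lower genes were Slc32a1, Abat, Gad2, Dlx6 and Gabra4. The median log2 fold change over the 23 genes was -0.06, against 0.00 over all genes, and 19 of the 23 values were negative. In bulk tissue, fewer cells of a type and less RNA per cell cannot be told apart.

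**Figure D1:**
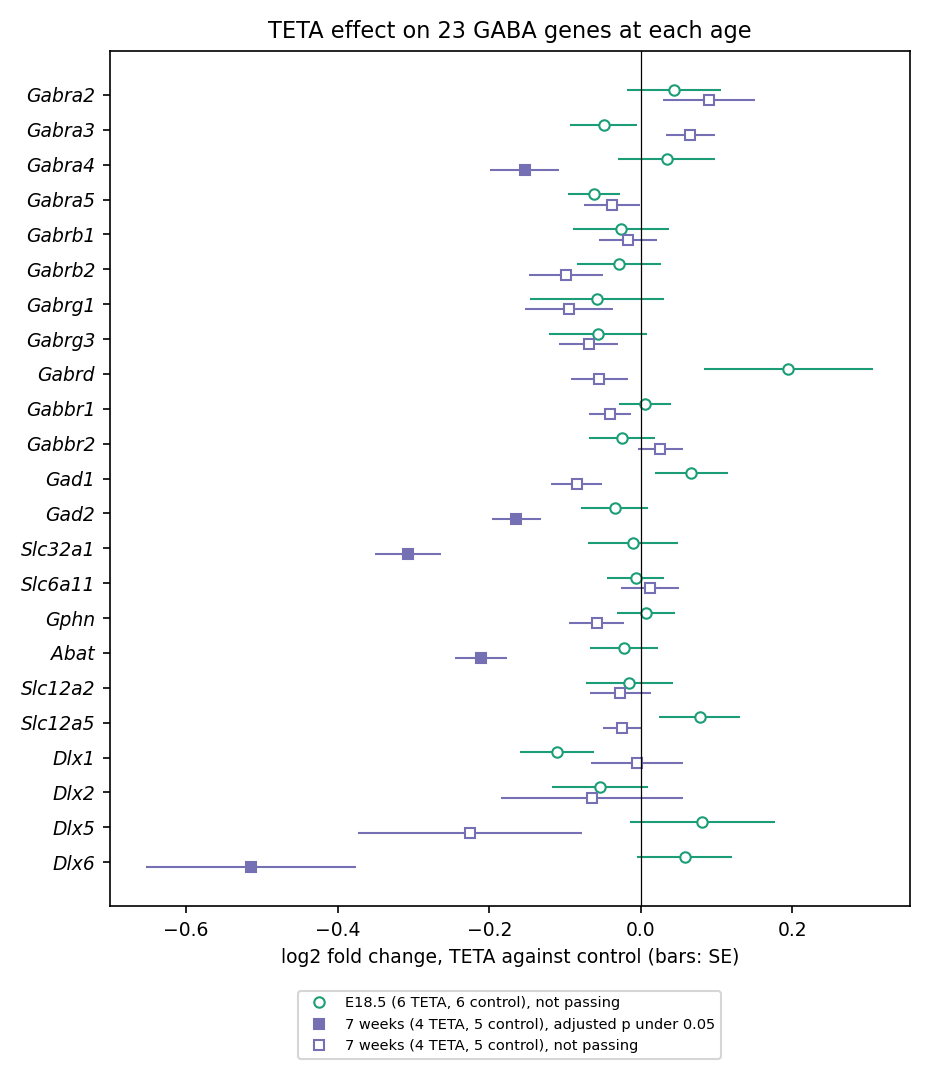
Log2 fold change of TETA against control (x axis) for the 23 tested GABA genes (y axis, by role), with 1 point per gene at E18.5 and at 7 weeks and bars of 1 standard error; filled points passed an adjusted p of 0.05. At 7 weeks Slc32a1, Abat, Gad2, Dlx6 and Gabra4 lie left of 0, from -0.15 to -0.51, and no gene passed at E18.5.

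Slc32a1 (chr2:158610767-158615748, plus strand, GRCm38), which encodes the vesicular GABA transporter VGAT, had the smallest p of the GABA genes. Its level in the 5 control libraries was 117, 113, 117, 111 and 120.4 CPM, and in the 4 TETA libraries it was 100.3, 96.2, 86.5 and 88.4 CPM. Every TETA library lay below every control library. The log2 fold change was -0.31 (SE 0.0438, adjusted p = 1.36e-04, edgeR's quasi-likelihood test), a level 0.808 times that of control. An antisense gene, Gm14205, overlaps 697 of its exon bases (24.9%), and the strand setting of the counting was not given in the sources used here, so reads of the pair may be mixed.

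Of the decarboxylases, Gad2 (chr2:22622205-22693874), whose product GAD65 is linked to synaptic vesicles, passed the test and Gad1 did not. Gad2 stood at 192, 182, 190.5, 187 and 183 CPM in control and at 167, 172, 161 and 163 CPM after TETA, with no overlap. Its log2 fold change was -0.16 (SE 0.0327, adjusted p = 0.00255, edgeR's quasi-likelihood test). Gad1 (chr2:70553072-70602014), whose product GAD67 makes most of the basal GABA, read 337, 361, 375, 344 and 364 CPM in control and 327, 338, 337 and 330.1 CPM after TETA. These ranges overlapped, and the log2 fold change of -0.08 (SE 0.0334) had an adjusted p of 0.120. The log2 ratio of Gad2 to Gad1 differed between the groups by -0.08 at 7 weeks (exact two-sided permutation test p = 0.159, adjusted p = 0.231 over 9 ratio tests), so the data do not separate the 2 decarboxylases in their response.

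Abat (chr16:8513429-8621568), which encodes the mitochondrial transaminase that degrades GABA, was also lower. Its control libraries read 329.8, 341, 325, 339 and 363 CPM, and its TETA libraries 298, 294, 278 and 295 CPM. The groups did not overlap, and the log2 fold change was -0.21 (SE 0.0342, adjusted p = 4.53e-04, edgeR's quasi-likelihood test). Slc6a11, the GABA transporter GAT3 of astrocytes, averaged 156 CPM in control libraries and 157 CPM in TETA libraries, and its log2 fold change was 0.01 (SE 0.0384). Of these 5 genes of synthesis, loading, uptake and breakdown, 3 were lower past the test, against 4.28% of all genes tested. Of 16 other genes of GABA metabolism and transport, 1 was lower.

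**Figure D2:**
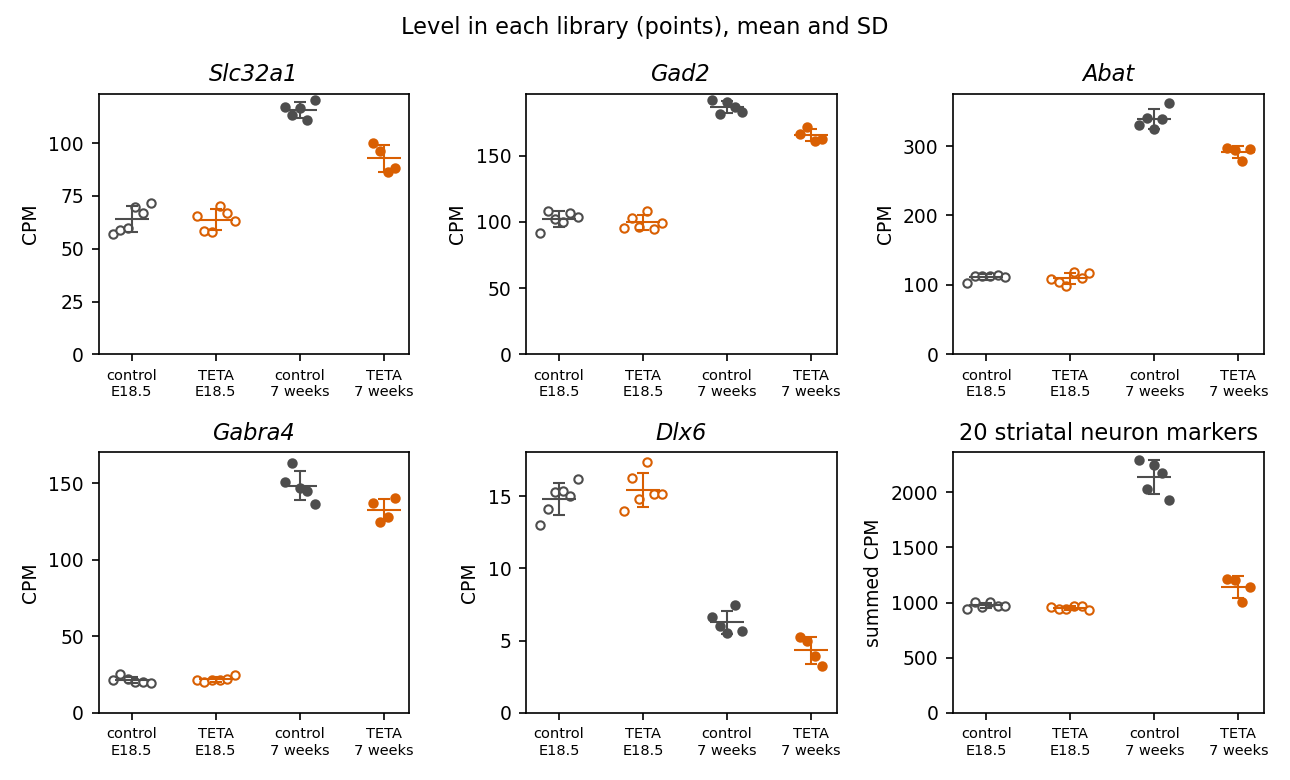
Level in each library (points; y axis, CPM) of Slc32a1, Gad2, Abat, Gabra4 and Dlx6, and the summed CPM of 20 striatal neuron markers, in the 4 groups (x axis; open points E18.5, filled points 7 weeks), with group means and SD. At 7 weeks the TETA points of Slc32a1, Gad2, Abat, Dlx6 and the striatal sum all sit below the control points, those of Gabra4 overlap them, and at E18.5 the groups overlap.

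Among the GABA-A receptor genes, Gabra4 passed. Its subunit, α4, joins with δ in receptors outside synapses, in the striatum, thalamus and dentate gyrus above all. Gabra4 (chr5:71569749-71658308, minus strand) measured 151, 163, 147, 145 and 136 CPM in control and 137, 125, 128 and 140.5 CPM after TETA. The groups overlapped, and the log2 fold change was -0.15 (SE 0.0457, adjusted p = 0.0372, edgeR's quasi-likelihood test). The call did not survive leaving out control replicate 1, 2, 3 or 4 or TETA replicate 2 or 3, where the adjusted p reached 0.121.

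The other α subunit genes did not pass. Gabra3 measured 216, 214, 215, 210.2 and 199 CPM in control and 215, 217, 222 and 221 CPM after TETA (log2 fold change 0.07, SE 0.032, adjusted p = 0.221, edgeR's quasi-likelihood test). Set against Gabra3 within each library, Gabra4 had a log2 ratio of -0.51 ± 0.066 over control libraries and -0.72 ± 0.082 over TETA libraries (SD, n = 5 and 4; exact two-sided permutation test p = 0.00794, the smallest this design allows, adjusted p = 0.0179). Without any 1 control library the exact p of this ratio was 0.0286, the smallest that 4 against 4 libraries allow, and its adjusted p was 0.0643. For Gabra2 the value was 0.09 (SE 0.0604), and for Gabra5, the α5 subunit of extrasynaptic receptors in hippocampus and deep cortex, it was -0.04 (SE 0.037).

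Gabrd encodes δ, the partner of α4. Its control libraries read 80.0, 79.3, 82.4, 80.0 and 77.4 CPM and its TETA libraries 79.8, 72.3, 75.2 and 77.4 CPM, overlapping ranges with a log2 fold change of -0.05 (SE 0.0378, adjusted p = 0.414, edgeR's quasi-likelihood test). The β subunit genes Gabrb1 and Gabrb2 differed by -0.02 (SE 0.0383) and -0.10 (SE 0.049) on the log2 scale, and the γ subunit genes Gabrg1 and Gabrg3 by -0.09 (SE 0.058) and -0.07 (SE 0.0388). None of these passed. For the GABA-B receptor, Gabbr1 had -0.04 (SE 0.0277) and Gabbr2 0.03 (SE 0.0294), so neither subunit passed. Gphn, which encodes gephyrin, the scaffold that holds GABA-A and glycine receptors at the synapse, had -0.06 (SE 0.0366).

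The chloride transporters did not pass. Slc12a5 read 823, 818, 829, 856 and 827 CPM in control and 798, 805, 810.0 and 829 CPM after TETA. Slc12a2 read 88.7, 96.0, 94.9, 88.8 and 93.4 CPM in control and 92.4, 94.3, 88.2 and 85.1 CPM after TETA. Both pairs of ranges overlapped. On the log2 scale Slc12a5 differed by -0.02 (SE 0.0254) and Slc12a2 by -0.03 (SE 0.0405). The log2 ratio of Slc12a5 to Slc12a2 was 3.17 ± 0.071 over control libraries and 3.17 ± 0.088 over TETA libraries (SD, n = 5 and 4; exact two-sided permutation test p = 0.96).

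Of the Dlx genes, Dlx6 (chr6:6863334-6868568) passed. It was at a low level: 6.64, 5.99, 5.50, 7.50 and 5.66 CPM in control (97 to 144 counts) and 5.27, 4.96, 3.90 and 3.25 CPM after TETA (64 to 117 counts). The groups did not overlap, and the log2 fold change of -0.51 (SE 0.139, adjusted p = 0.0212, edgeR's quasi-likelihood test) was the largest in size among the 23 genes. The call was lost without control replicate 4 (adjusted p = 0.0592), TETA replicate 3 (0.0793) or TETA replicate 4 (0.0772). The antisense gene Dlx6os2 overlaps 104 of its exon bases (4.38%), and 4.72% of its 50-base words occur in other genes, so reads may be shared here too. Dlx1 likewise overlaps the antisense gene Dlx1as over 335 bases (6.21%). Dlx5, the neighbour of Dlx6 on chromosome 6, had a log2 fold change of -0.23 (SE 0.148, adjusted p = 0.383), Dlx2 one of -0.06 (SE 0.121) and Dlx1 one of -0.01 (SE 0.0601).

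Markers of a neighbouring region moved with these values. Striatal medium spiny neurons are themselves GABAergic and are known to express Gad1, Gad2, Slc32a1, Gabra4 and Dlx6. A list of 20 striatal genes summed to 1927 to 2297 CPM in the 7-week control libraries and to 1003 to 1210 CPM in the TETA libraries, with 20 of 20 lower at a median log2 fold change of -1.07 and none at 0. Rgs9, a G protein regulator of striatal neurons, had a log2 fold change of -1.40, Gng7 one of -1.01 and Adcy5 one of -0.67. Their part in the lower Slc32a1, Gad2, Gabra4 and Dlx6 was not tested. A list of 18 cortical interneuron markers summed to 1305 to 1420 CPM in control and 1324 to 1362 CPM after TETA, overlapping, with 3 lower (Npy, Cort and Tac1, the last also on the striatal list) and 0 higher.

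Astrocyte markers bear on Abat and Slc6a11, which astrocytes express. A list of 12 astrocyte genes summed to 6237 to 7126 CPM in control and 5682 to 6073 CPM after TETA, with 3 lower (Slc1a2, Aldoc and Aldh1l1) and 0 higher. The part of these markers in the Abat value was not tested. Sums overlapped between the groups for cortical excitatory neuron markers (6747 to 7667 against 6888 to 7396 CPM), where 3 of 15 were lower and 1 higher, among them Emx1 (-0.26), Bcl11b (-0.21) and Neurod2 (0.22). They also overlapped for general neuronal genes (10200 to 10430 against 9893 to 10550 CPM), where Map2 was lower (-0.10) and Snap25 higher (0.08) of 10 genes, and for microglial genes (427 to 475 against 429 to 465 CPM), where 0 of 10 passed.

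Other genes of the pathway were counted by list at 7 weeks. Of 24 further tested GABA-A receptor subunit and anchoring genes, 3 were lower and 0 higher. Among them, Trak2, a transport adaptor, fell by 0.13 on the log2 scale (adjusted p = 0.0141, edgeR's quasi-likelihood test) and Slitrk3, a synaptic adhesion protein of inhibitory synapses, by 0.16. Of 10 effectors of the GABA-B receptor, 0 passed. Of 16 other metabolism and transport genes, 1 was lower: Slc6a13, the GABA transporter GAT2, which is found in meninges and vessels, fell by 0.47 (adjusted p = 0.00727). Choroid plexus genes summed to 5.21 to 65.7 CPM in control and 4.06 to 7.47 CPM after TETA, overlapping ranges. The control mean of 17.6 CPM was drawn up by its highest library, and the TETA mean was 5.75 CPM. The part of these genes in the Slc6a13 value was not tested. Of 25 other chloride and bicarbonate genes, 2 were higher and 2 lower. Slc4a4, the astrocytic bicarbonate transporter, fell by 0.29 (adjusted p = 2.65e-04), and Car7, a neuronal carbonic anhydrase, rose by 0.29 (adjusted p = 0.00317). The chloride channel gene Ano2 fell by 2.22 at a low level, with means of 3.125 CPM in control and 0.673 CPM after TETA. Of 19 interneuron and ventral forebrain transcription factors, 4 were lower and 1 higher, among them Isl1 (-2.73), Nr2f1 (-0.29) and Meis2 (-0.19). Of these, Isl1 and Meis2 are also factors of striatal neurons. Isl1 was at a very low level, with means of 0.961 CPM in control and 0.138 CPM after TETA.

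At E18.5, 0 of the 23 tested GABA genes passed in either direction, as did 0% of all 13794 genes tested (edgeR's quasi-likelihood test). At an unadjusted p under 0.05 there was 1 GABA gene, against 4.78% of all genes, and 0 GABA genes had groups that did not overlap, against 0.319% of all genes. DESeq2 called 10 genes and limma voom with library weights called 8, with 0 GABA genes in both. The log2 fold changes of the 23 genes ran from -0.11 to 0.19 with a median of -0.02.

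The GABA gene with the smallest p at E18.5 was Dlx1. Its control libraries ran from 110.0 CPM through a median of 122 to 126 CPM, and its TETA libraries from 98.8 through 111 to 128 CPM. The groups overlapped, with a log2 fold change of -0.11 (SE 0.0484, adjusted p = 0.996, edgeR's quasi-likelihood test). Gabra5 ran from 85.3 through 90.4 to 93.8 CPM in control and from 84.0 through 86.3 to 89.6 CPM in TETA, and its log2 fold change was -0.06 (SE 0.0342). Gabrd was at a low level (40 to 85 counts), from 2.44 through 2.88 to 3.46 CPM in control and from 2.96 through 3.34 to 3.82 CPM in TETA, and its log2 fold change was 0.19 (SE 0.112).

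The genes that were lower at 7 weeks had overlapping groups at E18.5. Slc32a1 ran from 57.0 through 63.5 to 71.8 CPM in control and from 57.8 through 64.4 to 70.3 CPM in TETA (log2 fold change -0.01, SE 0.0591). Gad2 ran from 91.5 through 103 to 108 CPM and from 94.8 through 97.7 to 108 CPM (-0.03, SE 0.0436). Abat ran from 102 through 113 to 114 CPM and from 98.2 through 109 to 118 CPM (-0.02, SE 0.0443). Each difference was smaller than its standard error, as it was for the remaining 2 genes. Dlx6 ran from 13.0 through 15.1 to 16.2 CPM and from 14.0 through 15.1 to 17.4 CPM (0.06, SE 0.0631). Gabra4 ran from 19.2 through 20.97 to 25.1 CPM and from 20.2 through 21.3 to 24.8 CPM (0.03, SE 0.064).

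Gad1, Gabra3 and the chloride transporters also had overlapping groups at E18.5. Gad1 ran from 122 through 132 to 139.9 CPM in control and from 128 through 138 to 157.5 CPM in TETA (log2 fold change 0.07, SE 0.0485). Gabra3 ran from 88.5 through 99.0 to 104 CPM and from 88.1 through 93.8 to 101 CPM (-0.05, SE 0.044). The log2 ratio of Gad2 to Gad1 differed by -0.10 between the groups (exact two-sided permutation test p = 0.0671, adjusted p = 0.121), which did not pass. Slc12a5 ran from 102 through 114 to 123 CPM in control and from 106 through 118 to 132 CPM in TETA (0.08, SE 0.0537), and Slc12a2 from 53.4 through 61.9 to 73.6 CPM and from 57.3 through 61.0 to 67.2 CPM (-0.02, SE 0.0572). The log2 ratio of Slc12a5 to Slc12a2 was 0.86 ± 0.16 over control libraries and 0.95 ± 0.19 over TETA libraries (SD, n = 6 and 6; exact two-sided permutation test p = 0.4). Striatal genes summed to 937 to 1003 CPM in control and 929 to 972 CPM in TETA at this age, with 0 past the test. Endothelial genes summed to 156 to 179.9 CPM in control and 181 to 196 CPM in TETA, without overlap; their part in the E18.5 values was not tested.

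Whether the response differed between the ages was tested as an interaction over all 21 libraries. Of 24 tested GABA genes, 2 had a TETA effect that was lower at 7 weeks than at E18.5 and 0 had a higher one. Of all 14660 genes, 3.1% passed, 1.43% with a lower and 1.67% with a higher effect at 7 weeks; higher ones made up 54.0% of the calls, and 72.0% with library totals. For Slc32a1 the difference of the log2 fold changes was -0.31 (SE 0.0814, adjusted p = 0.0294, edgeR's quasi-likelihood test), and for Dlx6 it was -0.58 (SE 0.143, adjusted p = 0.0175). Among the striatal genes, 18 of 20 passed the same test. For Abat the difference was -0.20 (adjusted p = 0.0677), for Gad2 -0.14 (0.209) and for Gabra4 -0.20 (0.202), so their responses are not shown to differ between the ages. Both calls rest on few libraries: 0 of the 2 remained without TETA replicate 3 or without TETA replicate 4 of 7 weeks, and Slc32a1 also missed without control replicate 2-1 or TETA replicate 1-1, 2-2 or 3-1 of E18.5.

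The second question of the design is how the genes differ between the ages in untreated brain. In the control libraries, 17 of the 23 tested GABA genes were higher at 7 weeks, 5 were lower and 1, Gabra2, did not pass (edgeR's quasi-likelihood test). Of all 14375 genes tested, 89.5% passed, 44% being higher and 45.5% lower. A change of at least 2-fold was met by 14 GABA genes, 10 higher and 4 lower, against 40.6% of all genes, and in 20 the groups did not overlap, against 80.2% of all genes. The median log2 difference was 0.88 over the GABA genes and -0.02 over all genes. Age cannot be told apart from brain region, sex or sequencing run, since E18.5 and 7-week libraries differ in age and may differ in the rest.

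**Figure D3:**
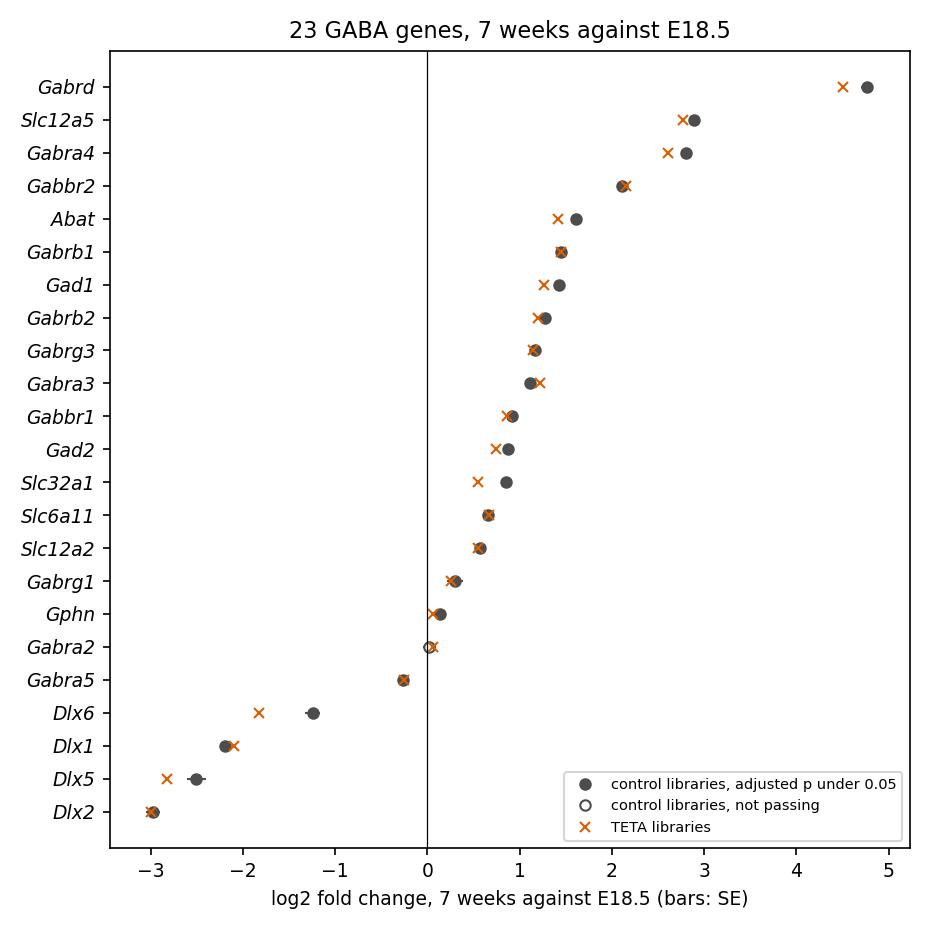
Log2 fold change of 7 weeks against E18.5 (x axis) for the 23 tested GABA genes (y axis, ordered by value), with circles for control libraries (filled where the adjusted p was under 0.05, bars of 1 SE) and crosses for TETA libraries. Gabrd stands at the top with 4.77 in control, Gabra2 at 0.02 is the open circle, and Dlx6, Dlx1, Dlx5 and Dlx2 lie between -1.25 and -2.98.

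The GABA-A subunits differed most for δ and α4. Gabrd (chr4:155384980-155398112, minus strand) rose from 2.94 ± 0.421 CPM at E18.5 (SD, n = 6) to 77.4 to 82.4 CPM over the 5 control libraries at 7 weeks, a log2 difference of 4.77 (SE 0.0661, adjusted p = 3.96e-26, edgeR's quasi-likelihood test) or 27.3-fold. Gabra4 rose from 21.4 ± 2.07 CPM to 149 ± 9.79 CPM, a log2 difference of 2.81 (SE 0.0558) or 7.01-fold. In both genes every 7-week library lay above every E18.5 library. The other α genes moved less: Gabra3 rose by 1.11 (SE 0.0408) on the log2 scale, Gabra2 differed by 0.02 (SE 0.0715, adjusted p = 0.796), and Gabra5 fell by 0.27 (SE 0.0382).

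Per kilobase of exon, which allows genes to be set side by side, the order of the α genes changed with age. In control libraries at E18.5 the levels were 30.3 CPM per kb for Gabra5, 24.95 for Gabra3, 7.04 for Gabra2 and 3.52 for Gabra4. At 7 weeks they were 53.7 CPM per kb for Gabra3, 25.1 ± 0.813 for Gabra5, 24.4 ± 1.61 for Gabra4 and 7.08 for Gabra2, with Gabra5 and Gabra4 within their spread of each other. Gabra4 thus went from the lowest of these 4 genes to the level of Gabra5. The log2 ratio of Gabra4 to Gabra3 differed by 1.69 between the ages (exact two-sided permutation test p = 0.00216, the smallest this design allows, adjusted p = 0.00649 over 9 ratio tests).

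The starts of Gabra4 and Gabrb1 lie head to head on chromosome 5, and 46 exon bases of the annotated genes overlap there (0.756% of Gabra4's exons). The stretch before the RefSeq start of Gabra4 that no annotated exon covers is shown because both genes rose with age; it lies in an intron of an annotated Gabrb1 transcript (GRCm38.p6, chr5:71658364-71658558, read on the minus strand 5′ to 3′, ending 55 bases before the start).
Gabra4 upstream: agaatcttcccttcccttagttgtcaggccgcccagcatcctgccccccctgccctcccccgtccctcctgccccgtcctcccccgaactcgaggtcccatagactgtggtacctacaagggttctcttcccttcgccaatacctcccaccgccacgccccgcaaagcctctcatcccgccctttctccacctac
It held no match to any of 4 motifs searched on both strands: TAATTA (a homeodomain core, in 4.84% of 32851 RefSeq windows of 250 bases), TGACGTCA (the cAMP response element, 1.55%), GCGTGGGCG or GCGGGGGCG (Egr, 3.06%) and CACGTG (the E-box, 6.02%). GC content was 63.6%.

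Gabrb1 (chr5:71658113-72149037, plus strand) rose by 1.45 (SE 0.0535) on the log2 scale, against 2.81 for Gabra4. Gabrb2 rose by 1.27 (SE 0.048), Gabrg3 by 1.17 (SE 0.0548) and Gabrg1 by 0.30 (SE 0.0871, adjusted p = 0.00271). Among these 4 genes Gabrb2 was highest at both ages, at 16.2 CPM per kb at E18.5 and 39.1 CPM per kb at 7 weeks. Gphn differed by 0.14 (SE 0.0404, adjusted p = 0.00345), the smallest difference that passed. With libraries scaled by their totals alone, the median of all genes shifted by -0.15, and Gphn then read -0.02 and missed the test, as did Gabrg1 at 0.15 (adjusted p = 0.115).

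Both GABA-B subunits rose. Gabbr1 was the most abundant receptor gene of the set at E18.5, with 62.7 CPM per kb, and rose by 0.92 (SE 0.0342) on the log2 scale to 118 CPM per kb. Gabbr2 rose by 2.11 (SE 0.0367), or 4.32-fold, from 18.7 to 80.5 CPM per kb. Per kilobase Gabbr1 stood above Gabbr2 at both ages.

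The genes of GABA synthesis and handling rose too. Gad1 rose by 1.43 (SE 0.0394) on the log2 scale and Gad2 by 0.88 (SE 0.0398). At E18.5 both stood at 17.4 CPM per kb, and at 7 weeks Gad1 was at 46.6 and Gad2 at 31.8 CPM per kb. The log2 ratio of Gad2 to Gad1 went from -0.38 to -0.93 (exact two-sided permutation test p = 0.00216, adjusted p = 0.00649). Slc32a1 rose by 0.85 (SE 0.0521), Abat by 1.61 (SE 0.0385), or 3.06-fold, and Slc6a11 by 0.65 (SE 0.0397). Of the 20 striatal markers, 16 were higher and 3 lower in this comparison, with a median log2 difference of 0.81, and their sum went from 937 to 1003 CPM at E18.5 to 1927 to 2297 CPM at 7 weeks. Their part in the rise of Gad1, Gad2, Slc32a1 and Gabra4 was not tested.

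**Figure D4:**
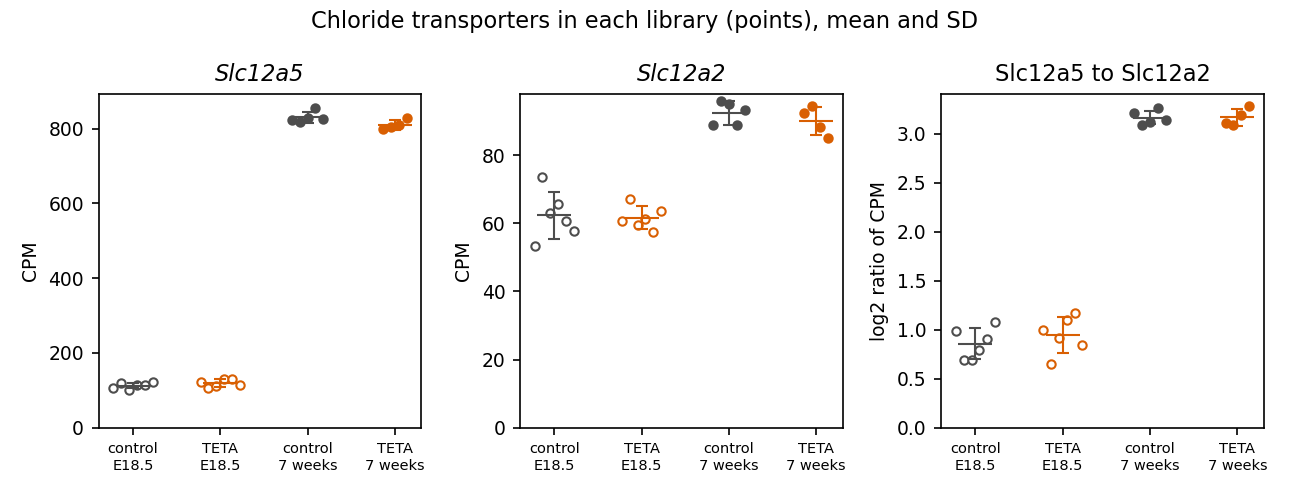
Level of Slc12a5 and of Slc12a2 (CPM) and their log2 ratio (y axes) in each library (points) of the 4 groups (x axis), with group means and SD. The mean ratio is 0.86 in control and 0.95 in TETA at E18.5, and 3.17 in both groups at 7 weeks.

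The chloride transporters parted with age. Slc12a5 (chr2:164960802-164999731), the neuronal exporter KCC2, rose from 113 ± 7.83 CPM at E18.5 (SD, n = 6) to 818 to 856 CPM over the 5 control libraries at 7 weeks, a log2 difference of 2.89 (SE 0.0433, adjusted p = 1.70e-25, edgeR's quasi-likelihood test) or 7.39-fold. Slc12a2, the importer NKCC1, which glia and oligodendrocyte precursors also express, rose by 0.57 (SE 0.0561) or 1.49-fold, and so was not lower in the older tissue. Per kilobase, Slc12a5 went from 15.2 to 111.5 CPM per kb and Slc12a2 from 5.71 to 8.46 CPM per kb. Their log2 ratio rose by 2.31 (exact two-sided permutation test p = 0.00216, the smallest this design allows, adjusted p = 0.00649). Oligodendrocyte genes, at 219 to 240 CPM summed at E18.5, summed to 7473 to 8822 CPM in the 7-week control libraries; their part in the Slc12a2 value was not tested.

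Slc12a5 has 2 RefSeq starts, known to give 2 isoforms that gene counts cannot separate. The stretches before them that no annotated exon covers are shown because this gene carries the chloride result (GRCm38.p6, plus strand, 5′ to 3′). They are chr2:164960596-164960801, ending 44 bases before the first start, and chr2:164967738-164967982, ending 5 bases before the second, and the capitals mark a CACGTG.
Slc12a5 first start: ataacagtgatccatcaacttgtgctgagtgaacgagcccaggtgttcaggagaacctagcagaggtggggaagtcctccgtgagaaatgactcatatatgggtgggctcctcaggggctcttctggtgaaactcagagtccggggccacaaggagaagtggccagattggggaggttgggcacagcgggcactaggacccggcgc
Slc12a5 second start: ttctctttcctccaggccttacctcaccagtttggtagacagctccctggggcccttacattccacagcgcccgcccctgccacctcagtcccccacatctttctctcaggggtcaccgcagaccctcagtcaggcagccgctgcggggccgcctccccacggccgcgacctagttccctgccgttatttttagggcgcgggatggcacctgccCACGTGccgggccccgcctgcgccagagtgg
The match begins 36 bases before the second start, and 6.02% of all windows hold such a word. The first stretch held no match to the motifs named above. GC content was 57.3% and 66.5%. A match is a description of the letters, not a site that was measured.

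The Dlx genes went the other way. Dlx2 fell by 2.98 (SE 0.075, adjusted p = 3.51e-21, edgeR's quasi-likelihood test) on the log2 scale. The log2 difference was -2.51 (SE 0.102) for Dlx5, -2.198 (SE 0.0479) for Dlx1 and -1.25 (SE 0.0827) for Dlx6, each past the test. Dlx1 went from a mean of 120.5 CPM at E18.5 to 26.1 CPM at 7 weeks and Dlx2 from 46.9 to 5.95 CPM. Each of the 4 had every 7-week library below every E18.5 library. Of 23 other interneuron and ventral forebrain transcription factors, 21 were lower and 1 higher, with Lhx6 at -2.32 and Nr2f2 at -3.44.

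Lists of related genes moved as follows between the ages in control libraries. Of 24 other GABA-A receptor subunit and anchoring genes, 18 were higher and 6 lower. Of 10 GABA-B effectors, 6 were higher and 2 lower, with the potassium channel genes Kcnj9, Kcnj6 and Kcnj3 at 4.65, 3.12 and 2.38 on the log2 scale. Of 16 metabolism and transport genes, 11 were higher and 3 lower, among them Glul, the glutamine synthetase of astrocytes, at 3.25, and Maob, the monoamine oxidase, at 3.52. Of 25 chloride and bicarbonate genes, 15 were higher and 6 lower, with Car2 at 4.29 and Slc4a10, a neuronal bicarbonate transporter, at 2.89. Of 18 cortical interneuron markers, 11 were higher and 6 lower, with Lamp5 at 7.22 and Vip at 7.89. Astrocyte markers moved with these values: the list of 12 genes summed to 615 to 701 CPM in the E18.5 control libraries and to 6237 to 7126 CPM in the 7-week ones, and its part in the rise of Abat, Slc6a11 and Gabrg1 was not tested.

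In the TETA libraries the comparison of ages gave 16 higher, 5 lower and 2 not past the test (Gabra2 and Gphn) of 23 GABA genes, where 88.5% of all 14337 genes passed, 43.7% higher and 44.8% lower (edgeR's quasi-likelihood test). The age difference was 4.51 for Gabrd, 2.77 for Slc12a5 and 2.61 for Gabra4 on the log2 scale, beside 4.77, 2.89 and 2.81 in control. For Slc32a1 it was 0.55 in TETA beside 0.85 in control, and for Dlx6 -1.83 beside -1.25. These last 2 are the genes whose difference between the contrasts passed the interaction test above.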

How the data were processed

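The labels give stranded poly(A) libraries (TruSeq Stranded mRNA). The authors deposited whole-number counts per gene symbol, 1 table per age, per the file headers. STAR 2.7.1a, featureCounts 2.0.1 and mm10 are named in the submitters' processing notes; the annotation, the strand setting and the handling of multiply mapped reads are not given in the sources used here.

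E18.5 rows at 0 in control replicate 1-1 were divided by 11. Genes were kept by filterByExpr (minimum count 10), libraries scaled by TMM, and groups compared with edgeR 4.0.16 (quasi-likelihood test, Benjamini-Hochberg adjustment, threshold 0.05) in R 4.3.3, each age alone, and over both ages for the age difference and the interaction. SE is the log2 fold change divided by the square root of F. Levels are TMM-scaled CPM over all 21 libraries, per kilobase of merged GENCODE M21 exons where stated; ratios use log2 CPM with a prior count of 2. The tests were tested on simulated data. Upstream sequences came from RefSeq (GRCm38.p6); 20 members have an entry, and 5 are named only.

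Members and lists were chosen with earlier results of these data known. All 25 genes are named; values of each library (at E18.5, with 6 libraries a group, the lowest, median and highest) are given for genes past the threshold after TETA at an age (or the 3 smallest p where none passed) and for Slc12a2, Slc12a5, Gad1, Gad2, Gabra3, Gabra4 and Gabrd. Of other lists, at most the 3 smallest p past the threshold are named, beside genes of the marker lists. Nothing says that replicates were separate animals, so p-values measure only the spread between these samples. No replicate pair agreed within counting noise (lowest chi-square per gene 2.30). Control and TETA libraries share replicate numbers in the labels; same-numbered deviations correlated at 0.0185 on average at E18.5 and -0.0504 at 7 weeks, so the numbers were not used as pairs. Alternatives were other filters, library totals, DESeq2 1.42.0, limma 3.58.1 voom with sample weights, a replicate block, summed libraries, undivided counts, a prior count of 0.5 and leaving out each library; leaving out together the libraries that stood apart was added after seeing the data.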

Additional observations from a re-analysis of the deposited data

Results flagged for a closer look

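The effect of TETA differed between the ages for Slc32a1 (-0.3081 on the log2 scale) and Dlx6 (-0.5833) by the interaction test.

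In 8 of 104 groups of libraries, 1 library lay far from the rest of its group by Dixon's gap; chance gives about 1 in 20. The gap as a share of the group's range was 0.821 for Abat in control 1-1 at E18.5 (102 CPM, the others 112 to 114), 0.81 for Gabrb1 and 0.704 for Gabra2 in control 1-2, and 0.794 for Dlx2 and 0.665 for Dlx5 in TETA 1-2 (40.6 CPM for Dlx5, the others 24.5 to 29.0). At 7 weeks it was 0.725 for Gabbr1 in control 1, 0.723 for Slc12a5 in control 4, and 0.797 for the Gabra4 to Gabra3 ratio in control 2.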

How the results depend on the processing

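Slc32a1, Gad2 and Abat passed at 7 weeks in every alternative run, with each library left out included. The count of GABA genes past the threshold at 7 weeks ran from 3 to 5 with 1 library left out (3 without control replicate 4 or TETA replicate 3). For the interaction it was 1 with library totals, where Slc32a1 had an adjusted p of 0.0517 (edgeR's quasi-likelihood test), and 0 to 3 with 1 library left out; Abat joined under DESeq2 (adjusted p = 0.0294) and voom (0.0411). With library totals, Gabra4 missed at 7 weeks (adjusted p = 0.0585) and Gphn reversed between the ages (-0.0174). No alternative called a GABA gene at E18.5; 42 of 506 values at that age changed sign, all short of the threshold. The age count was 22 with any control library left out. With the replicate number as a block, 0 GABA genes passed at E18.5 and 5 at 7 weeks; paired by number, the Gabra4 to Gabra3 ratio at 7 weeks differed by -0.2267 (exact sign-flip permutation p = 0.125, the smallest that 4 pairs allow, adjusted p = 0.225), a test that could not pass. With 1 library left out that ratio ran from -0.2415 to -0.189, and the Gad2 to Gad1 ratio at E18.5 (-0.10 with all libraries, adjusted p = 0.121 by exact permutation) from -0.1313 (0.0143, without TETA replicate 1-2) to -0.0752. Depth limits Gabra6 and Gabre, and Gabrd at E18.5 rests on 40 to 85 counts.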
